A study of Schizosaccharomyces pombe with 2 samples.

Results

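Introns of intron-rich genes were followed in a splicing factor mutant of fission yeast (Schizosaccharomyces pombe) shifted to its restrictive temperature. A gene was taken as intron-rich where the authors' table lists 6 or more introns for it, and all of its introns were then taken. This gave 656 introns of 90 genes, out of 5374 introns of 2548 genes in the whole table. The genes held a median of 6 introns and at most 15. The choice used only the number of introns listed and no read count. Both libraries come from the same strain, which carries pat1_as2, a chemically inhibitable allele of the Pat1 kinase used to start meiosis, and prp2-1, a mutation in the large subunit of the splicing factor U2AF that makes it sensitive to heat. The cells had been starved of nitrogen, driven through meiosis in synchrony and, as meiosis I began, divided into a part shifted to 34 °C, the restrictive temperature of prp2-1, and a part kept at 25 °C, its permissive temperature. PolyA RNA was sequenced after 1 h, with 1 library at 34 °C and 1 at 25 °C. No strain with a working Prp2 at 34 °C is among the samples, so the effect of the temperature itself and the effect of losing Prp2 cannot be told apart. Each temperature has 1 library, so the differences lack a replicate check and each test on reads compares these libraries.

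U2AF recognises the pyrimidine-rich stretch and the AG at the end of an intron and helps to recruit the U2 particle to the branch site. Fission yeast introns are mostly short, and the splicing machinery of this yeast is thought to recognise a short intron as a unit. A transcript with many introns becomes a translatable message when all of them are removed, and a retained intron usually brings a stop codon into the reading frame.

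The introns of the placed genes with the widest spread of response (npg1, twf1 and get4) and of the evenly responding genes with every intron measured (vma5 and paa1) are shown because these genes lie at either end of the range of change. By the test of pairs described further on, of these 5 genes only npg1 held introns that differed. They were read from RefSeq's ASM294v3 assembly, 5' to 3' along the transcript, and numbered along the transcript. Capitals mark the first 6 bases (the 5' splice site), the branch site word nearest the 3' end within the last 60 bases (CTAAC, its variant with G, which is CTGAC, or either one ending in T, that is CTAAT and also CTGAT), and the closing AG. Words were searched on the transcript strand only, and a match describes the letters and is no proof of a branch site. Introns with too few reads are left out. Of all 5038 placed introns with GT and AG ends, 27.5% begin with GTAAGT, and 75.5% hold such a branch site word.
npg1 intron 1, chrII:3343660-3343703, minus strand: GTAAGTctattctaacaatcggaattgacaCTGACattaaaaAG
npg1 intron 2, chrII:3343409-3343451, minus strand: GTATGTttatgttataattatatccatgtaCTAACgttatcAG
npg1 intron 3, chrII:3342471-3342509, minus strand: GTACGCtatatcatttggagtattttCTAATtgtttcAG
npg1 intron 4, chrII:3342227-3342271, minus strand: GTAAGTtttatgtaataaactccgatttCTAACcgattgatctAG
npg1 intron 5, chrII:3341951-3341991, minus strand: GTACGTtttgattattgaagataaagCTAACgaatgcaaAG
npg1 intron 6, chrII:3341442-3341487, minus strand: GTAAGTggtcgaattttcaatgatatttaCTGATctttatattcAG
npg1 intron 7, chrII:3340900-3340985, minus strand: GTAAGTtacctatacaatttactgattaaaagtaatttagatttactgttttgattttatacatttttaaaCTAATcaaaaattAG
twf1 intron 1, chrIII:2125975-2126012, plus strand: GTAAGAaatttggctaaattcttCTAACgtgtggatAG
twf1 intron 2, chrIII:2126091-2126153, plus strand: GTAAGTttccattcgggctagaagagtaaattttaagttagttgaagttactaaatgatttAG
twf1 intron 5, chrIII:2126950-2126989, plus strand: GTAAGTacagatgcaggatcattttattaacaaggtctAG
twf1 intron 6, chrIII:2127109-2127150, plus strand: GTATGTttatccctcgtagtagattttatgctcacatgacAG
get4 intron 1, chrIII:591576-591622, minus strand: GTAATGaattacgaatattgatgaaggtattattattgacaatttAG
get4 intron 3, chrIII:591259-591321, minus strand: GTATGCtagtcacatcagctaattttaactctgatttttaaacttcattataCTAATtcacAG
get4 intron 4, chrIII:591068-591182, minus strand: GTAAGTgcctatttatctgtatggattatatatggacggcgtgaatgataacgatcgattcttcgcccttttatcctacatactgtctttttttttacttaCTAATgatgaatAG
get4 intron 5, chrIII:590952-590996, minus strand: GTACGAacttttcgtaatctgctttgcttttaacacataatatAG
get4 intron 6, chrIII:590458-590565, minus strand: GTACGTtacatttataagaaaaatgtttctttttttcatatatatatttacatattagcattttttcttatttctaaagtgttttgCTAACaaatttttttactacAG
vma5 intron 1, chrI:2721101-2721201, plus strand: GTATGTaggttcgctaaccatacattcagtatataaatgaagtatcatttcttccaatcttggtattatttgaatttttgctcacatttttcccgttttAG
vma5 intron 2, chrI:2721356-2721404, plus strand: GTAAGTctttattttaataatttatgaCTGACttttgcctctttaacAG
vma5 intron 3, chrI:2721500-2721551, plus strand: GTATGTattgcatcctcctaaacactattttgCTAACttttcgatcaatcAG
vma5 intron 4, chrI:2721644-2721747, plus strand: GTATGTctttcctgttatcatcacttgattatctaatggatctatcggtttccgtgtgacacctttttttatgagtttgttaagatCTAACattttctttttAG
vma5 intron 5, chrI:2722009-2722059, plus strand: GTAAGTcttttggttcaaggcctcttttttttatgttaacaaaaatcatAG
vma5 intron 6, chrI:2722292-2722374, plus strand: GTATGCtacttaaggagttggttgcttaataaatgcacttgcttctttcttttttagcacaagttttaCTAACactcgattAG
paa1 intron 1, chrI:5332600-5332650, minus strand: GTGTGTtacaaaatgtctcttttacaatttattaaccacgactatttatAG
paa1 intron 2, chrI:5332498-5332551, minus strand: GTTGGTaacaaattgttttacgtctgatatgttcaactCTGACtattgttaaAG
paa1 intron 3, chrI:5332284-5332391, minus strand: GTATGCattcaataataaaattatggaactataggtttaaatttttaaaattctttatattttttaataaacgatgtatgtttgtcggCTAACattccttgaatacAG
paa1 intron 4, chrI:5331319-5331379, minus strand: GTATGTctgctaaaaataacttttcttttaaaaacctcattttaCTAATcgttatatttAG
paa1 intron 5, chrI:5331163-5331217, minus strand: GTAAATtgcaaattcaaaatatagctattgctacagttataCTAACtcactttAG
paa1 intron 6, chrI:5330780-5330824, minus strand: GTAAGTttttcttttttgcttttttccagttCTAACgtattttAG

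The intron-rich genes were covered thinly. Over their 656 introns the 34 °C library held 31071 reads and the 25 °C library 53972 reads, of 493659 and 636989 reads over all introns. The unspliced share is the percentage of an intron's reads that are unspliced, and it was used where an intron had at least 20 reads in each library. This left 261 introns of 72 genes, 39.8% of the members' introns, against 47.6% in genes with 1 to 5 introns. The measured introns of intron-rich genes had medians of 53 reads at 34 °C and 65 at 25 °C. Of the 395 introns left out, 3 had 0 reads in both libraries. A share from bulk RNA cannot tell complete retention in some cells from partial retention in all. Intervals of shares are exact (Clopper-Pearson) and those of changes are Newcombe intervals, both at 95% and for counting error only, and copies of the same molecule would make them too narrow.

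Splicing of the intron-rich genes dropped broadly at 34 °C. Over the 261 measured introns the median share was 50% at 34 °C and 6.06% at 25 °C, and the median change was 39.4 percentage points, against 32.3 points over all 2508 measured introns. The share rose in 224 introns (85.8%), as judged for each intron by Fisher's exact test (two-sided, adjusted after Benjamini and Hochberg over all measured introns). Over the whole table the same test called 82.6% higher, so the share of calls was near that background. It fell in 0 introns by the same Fisher's exact test (0% over the whole table), and at an unadjusted p under 0.05 there were 226 higher and 0 lower. The change exceeded 20 points in 199 of the 261 introns (76.2%), against 67.6% over the whole table. It exceeded 50 points in 92 of the 261 introns (35.2%), against a background of 26.3%. More than 50% of reads were unspliced in 128 of these introns at 34 °C (49.0%) and in 4 at 25 °C, against 990 of 2508 introns (39.5%) at 34 °C and 39 at 25 °C over the whole table.

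The median change was larger in each class of genes with more introns. The median change was 26.3 points in genes with 1 intron (529 measured introns), 32.3 points in genes with 2 (664 introns), 34.8 points in genes with 3 to 5 (1054 introns) and 39.4 points in genes with 6 or more. At 34 °C the median share was 36.2%, 41.1%, 43.3% and 50% in the same order, and at 25 °C it was 6.38%, 5.17%, 5.37% and 6.06%. The order of these medians was therefore seen at 34 °C and not at 25 °C. With the reads of all introns of a class pooled, 31.7%, 39.6%, 44.5% and 40.7% were unspliced at 34 °C, so intron-rich genes did not stand highest. The last value was 45.1% without wtf18, which is described further on. Median reads per measured intron at 34 °C fell in the same order, from 92 to 79.5, 77 and 53. Near the limit of the rule, genes with exactly 6 introns had a median change of 44.3 points (115 introns) and genes with exactly 5 had 32.9 points (203 introns). Among the intron-rich genes the change did not grow further, with medians of 37.4 points in genes with 8 or more introns and 40.5 points in genes with 6 or 7. Single intron numbers gave no steady order, with 35.7 points at 3 introns, 32.6 at 4, 38.9 at 7, 44.2 at 8 and 30.3 at 9. These medians are descriptions with no test, since introns are not replicates of a condition.

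**Figure D1:**
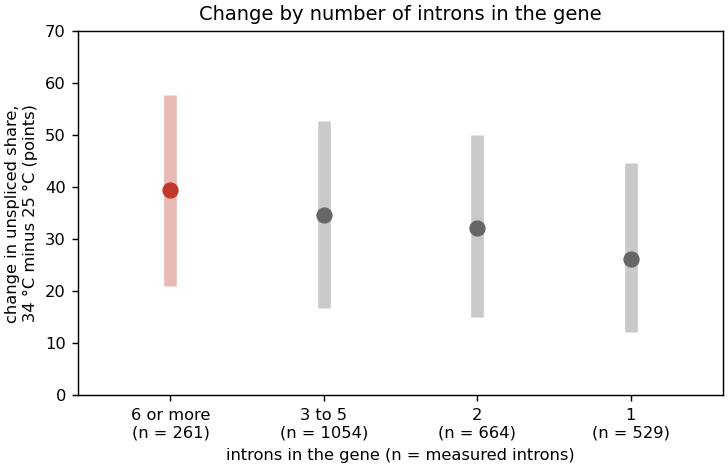
Change in unspliced share, 34 °C minus 25 °C, in percentage points, by the number of introns in the gene; points are medians and bars run from the first to the third quartile of the measured introns. The median is 39.4 points in genes with 6 or more introns and 26.3 points in genes with 1 intron, and the quartile ranges overlap widely.

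The introns of intron-rich genes also differed in build from those of other genes. The 620 placed introns of these genes with GT and AG ends had a median length of 47 nt (quartiles 42 and 56), against 58 nt (47 and 92) in genes with 1 to 5 introns and 67 nt in genes with 1 intron. GTAAGT opened 23.7% of them and 28.0% of the introns of genes with 1 to 5 introns, and a branch site word stood in 67.4% and 76.7%. The exons between the introns were of similar size, with a median of 135.5 nt in intron-rich genes and 139 nt in genes with 2 to 5 introns. Of the members' placed introns 98.5% lay within the coding part, and an annotated exon of another gene overlapped 63.4%. Reads of such an overlapping gene could have been counted as unspliced. The part of these features in the larger change was not tested.

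Within classes of similar introns the gap to other genes varied. Among introns of at most 50 nt the median change was 41.5 points in intron-rich genes (138 introns) and 41.2 points in genes with 1 to 5 introns (704 introns). Among introns of 51 to 100 nt it was 40.2 points (76 introns) and 32.1 points (923 introns), and above 100 nt 25.9 points (23 introns) and 22.0 points (539 introns). The short introns of both kinds of gene thus had like medians, and those of middle length did not. Introns with GTAAGT had 27.3 points in intron-rich genes (64 introns) and 22.1 points in genes with 1 to 5 introns (609 introns). Those with GTATGT had 39.7 points (34 introns) and 28.9 points (481 introns), and those with other 5' splice sites 45.8 points (139 introns) and 39.7 points (1076 introns). Among introns free of overlap with another gene's exons, the medians were 40.5 points in intron-rich genes (95 introns) and 31.6 points in genes with 1 to 5 introns (906 introns).

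The share was next set out by intron number. The table's numbers appear to count from each chromosome's left end, and positions along the transcript in minus-strand genes rest on this reading. PolyA RNA gives more reads towards the 3' end, and at 25 °C reads per intron went up with the number in 26 of 37 plus-strand genes and down in 37 of 48 minus-strand genes. At 34 °C the pattern was weaker, up in 21 of 37 and down in 32 of 48. Intron numbers run along the transcript for the 85 genes whose introns could be placed on the annotation. At 34 °C the median share was 55.0% for intron 1 (27 introns), 35.9% for intron 2 (26), 53.5% for intron 3 (34), 51.2% for intron 4 (30), 50.7% for intron 5 (31), 50.9% for intron 6 (43), 52.5% for intron 7 (21), 43.5% for intron 8 (13) and 53.9% for intron 9 (6). At 25 °C the medians of the same positions lay between 4.05% at intron 5 and 8.13% at intron 1. Apart from introns 2 and 8 the medians at 34 °C lay between 50.7% and 55.0%, and at each of positions 1 to 8 the introns ran over most of the scale.

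**Figure D2:**
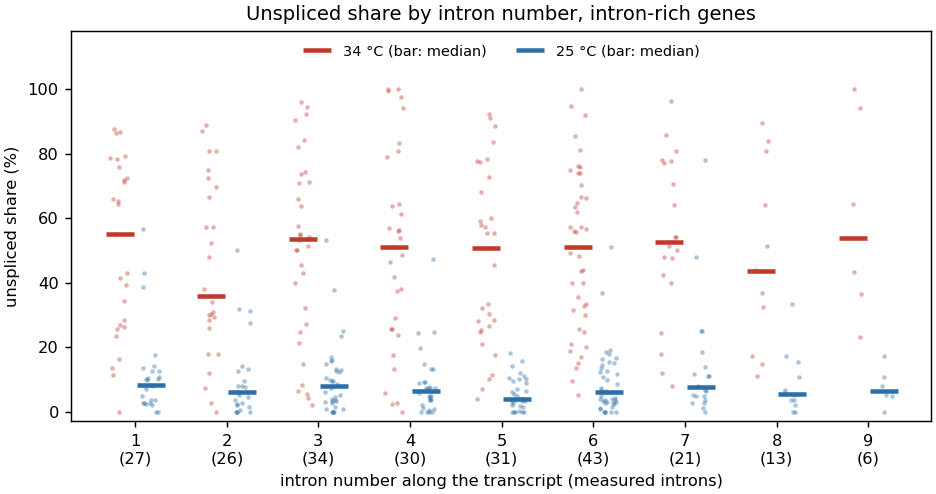
Unspliced share in percent of each measured intron of the placed intron-rich genes, by intron number along the transcript, with positions of at least 5 introns shown and their number in brackets; points are introns and bars are medians. At 34 °C the points of each position spread widely around medians between 35.9% and 55.0%, and at 25 °C most lie below 20%.

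First and last introns gave no steady order. Along the transcript, first introns had a median change of 32.6 points (27 introns), internal introns 39.1 points (171) and last introns 43.2 points (40). In plus-strand genes these medians were 40.1, 35.8 and 38.7 points, and in minus-strand genes 31.8, 40.9 and 46.0 points. In the 22 genes with both ends measured the first intron changed more in 9 and the last in 13. By the table's own numbers, which appear to run against the transcript in minus-strand genes, the median change of first introns stood 15.5 points above that of last introns. Within the 25 genes with both measured by these numbers, the first changed more in 12 and the last in 13, with a median difference of -0.119 points.

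At a minimum of 20 reads, every measured intron rose in most intron-rich genes. Of the 58 intron-rich genes with at least 2 measured introns, 35 (60.3%) had every measured intron called higher, 22 held called and uncalled introns, and 1 had no call. With a minimum of 10 reads every measured intron was called in 22 of 73 genes (30.1%) and with a minimum of 50 reads in 19 of 24 (79.2%). In genes with 2 to 5 introns every measured intron was called in 394 of 569 genes (69.2%), where fewer introns have to pass. Of the 23 intron-rich genes with an uncalled intron, 14 missed 1 intron, 6 missed 2, 2 missed 3 and 1 missed 4. Of the 17 genes with 6 or more measured introns, 10 rose in all of them. The gene with no call was rsd1, which encodes an RNA-binding protein, with 2 measured introns. Both libraries together held a median of 103 reads per uncalled intron and 134.5 per called intron. The 37 uncalled introns had a median change of 6.32 points, and 17 of them lay within 5 points of 0.

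**Figure D3:**
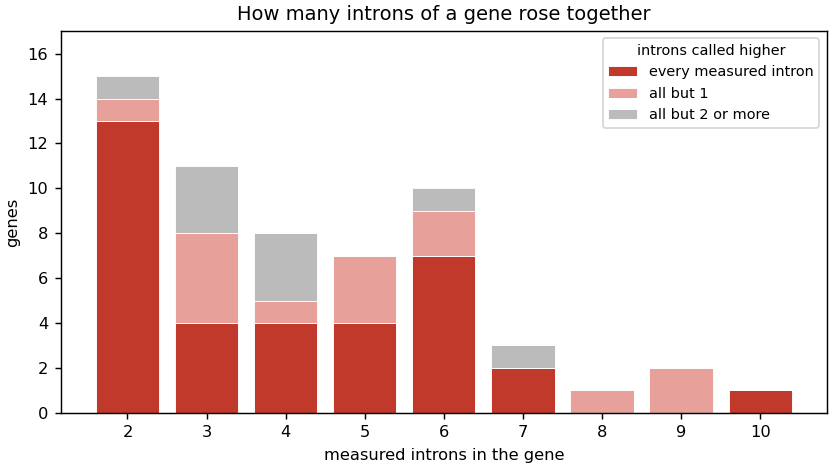
Number of intron-rich genes (vertical axis) by their number of measured introns (horizontal axis), with colours for how many of these introns were called higher at 34 °C than at 25 °C. Every measured intron was called in 35 of the 58 genes, among them the gene with 10 measured introns.

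The introns of a gene rose by different amounts. In 43 genes 3 or more introns were measured, and the range of change within a gene, the highest less the lowest, had a median of 42.7 points (quartiles 33.0 and 51.2) and ran from 18.1 to 72.4 points. Counting error widens such a range, and with a minimum of 50 reads its median was 27.0 points in 14 genes. The standard deviation of the change within genes was 18.1 points, against 22.6 points over all introns of the same 58 genes, and in genes with 2 to 5 introns it was 18.6 points within genes and 22.1 points over all introns. The spread inside a transcript was thus most of the spread there was, in both kinds of gene. Of 524 pairs of introns of the same intron-rich gene, 42 (8.02%) differed in the log odds ratio between temperatures after adjustment over all pairs, against 11.4% over all 1825 pairs. With a minimum of 50 reads 34 of 173 pairs of intron-rich genes (19.7%) differed, and with a minimum of 10 reads 38 of 957 (3.97%). Shares over all pairs at these minimums are not given here. The 42 pairs came from 14 genes. The 2 genes npg1 and ypt5 held 12 and 7 of them. A difference in log odds ratio need not be one in points. Introns 2 and 7 of ypt5, in the table's numbers, differed with a gap of 0.463 points. Among placed introns free of overlap with another gene's exons, which leaves out npg1 and ypt5, 2 of 95 pairs differed, both in osh41. This gene encodes an oxysterol-binding protein. Both pairs hold the last intron of osh41, which was 78.2% unspliced at 25 °C already. Tested on the reads at 34 °C alone, with Fisher's exact test and the same adjustment, 267 of the 524 pairs (51%) differed in their share, against 55.5% of all pairs.

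Neighbouring introns were hardly closer to each other than distant ones. The median gap in change was 14.4 points for 145 adjacent pairs, 15.9 points for 116 pairs with 1 intron between them and 16.2 points for 263 pairs farther apart, and 6.21%, 10.3% and 7.98% of these pairs differed. The same intron had the highest share of its gene at 34 °C and at 25 °C in 20 of the 43 genes. In genes with 2 to 5 introns, where fewer introns compete, this was so in 127 of 216. Within genes the shares at the 2 temperatures had a Spearman correlation of 0.541 across 217 introns, and of 0.505 across 741 introns in genes with 2 to 5. Both are across introns of shared transcripts and libraries and are given as a description. Among the 31 placed pairs that differed, the intron with the larger change was the shorter one in 15 and the longer in 16, and it had the weaker 5' splice site score in 16 and the stronger in 11. Among the 440 placed pairs that did not differ it was the weaker in 221 and the stronger in 176. The score adds up how common the base at each of intron positions 3 to 6 is among all placed introns, as log2 of its frequency over 0.25.

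**Figure D4:**
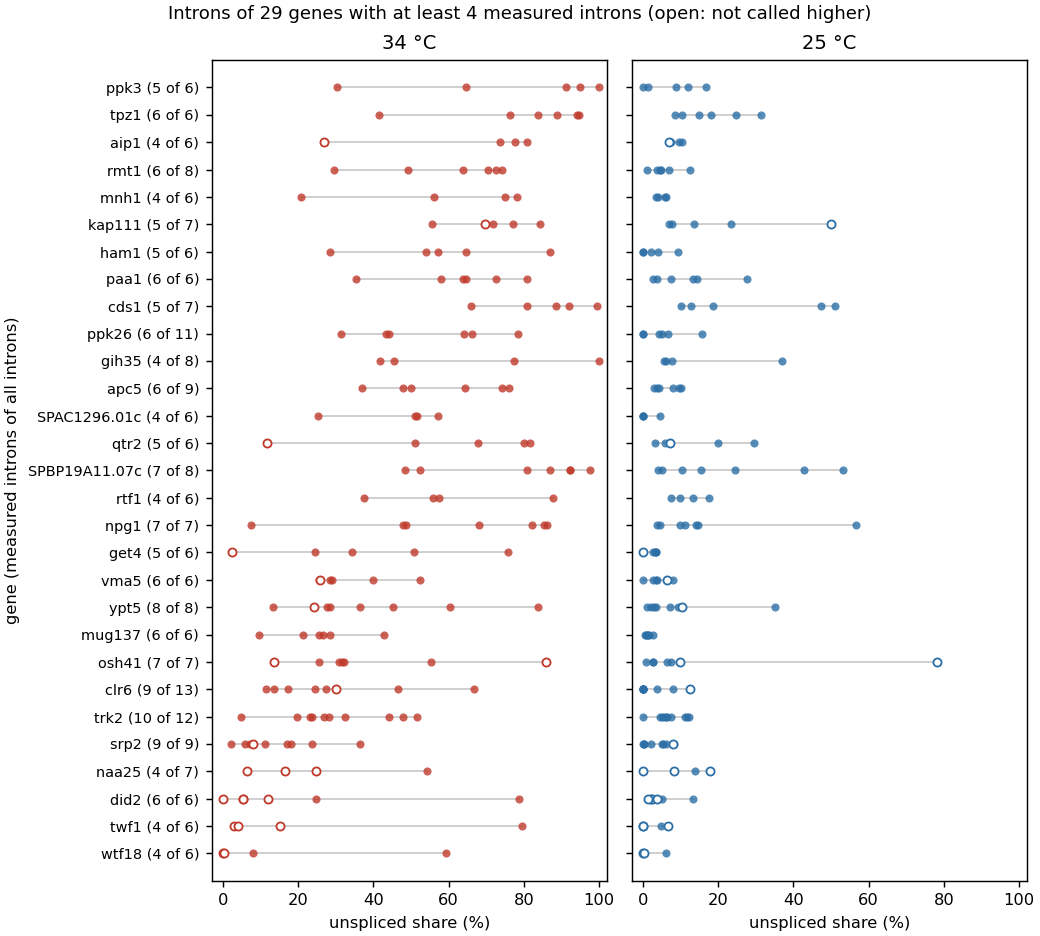
Unspliced share in percent of every measured intron (points) of 29 intron-rich genes with at least 4 measured introns, at 34 °C on the left and 25 °C on the right; grey lines join the lowest and highest intron of a gene, filled points are introns called higher at 34 °C, and genes are ordered by median change. The introns of a gene lie close together at 25 °C in most genes and are spread widely at 34 °C, as in npg1 from 7.39% to 86.3%.

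The most pairs of differing introns were in npg1, which is annotated as a regulator of GTPases and lies on the minus strand of chromosome II. Its 7 introns, shown above, all rose. At 34 °C their shares from intron 1 to intron 7 were 86.3%, 7.39%, 82.1%, 48.5%, 68.1%, 85.4% and 47.8%, against 25 °C values of 56.5%, 3.64%, 9.94%, 4.64%, 14.0%, 14.5% and 11.1%. Intron 2 (chrII:3343409-3343451) stayed mostly spliced beside neighbours that were mostly retained. It had 43 unspliced reads of 582 at 34 °C (95% interval 5.40 to 9.82%), against 28 of 770 at 25 °C (2.43 to 5.21%). Intron 3 (chrII:3342471-3342509) had 184 of 224 at 34 °C (76.5 to 86.9%) and 17 of 171 at 25 °C (5.90 to 15.4%). Their changes of 3.75 and 72.2 points were among the pairs that differed. Intron 2 opens with GTATGT and holds CTAAC, while intron 3 opens with GTACGC, which begins 0.814% of placed introns, and holds CTAAT. The 5' splice site alone did not sort these introns, since introns 1, 4, 6 and 7 all open with GTAAGT and had shares between 47.8% and 86.3% at 34 °C. Exons of other annotated genes overlap all 7 introns.

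The widest range of change, 72.4 points, was in qtr2, which encodes an accessory subunit of the enzyme that places queuine in tRNA. Its introns could not be placed and carry the table's numbers. Intron 1 had 64 unspliced reads of 80 at 34 °C, against 2 of 64 at 25 °C, whereas intron 6 had 8 of 69 at 34 °C and 3 of 42 at 25 °C and was not called (adjusted p = 0.562, Fisher's exact test). This pair was among those that differed. The other 3 measured introns rose by 45.2 to 52.1 points. Intron 1 also differed from introns 2 and 4, and intron 6 differed from no intron other than intron 1.

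In twf1, which encodes twinfilin, a protein that binds actin monomers, the order was the opposite, with 1 intron called higher among 4 measured. Intron 1 (chrIII:2125975-2126012) had 27 unspliced reads of 34 at 34 °C, against 1 of 21 at 25 °C, so that its share rose by 74.6 points (interval 50.5 to 85.6). Intron 2 had 4 of 142 at 34 °C and 0 of 101 at 25 °C, where the exact interval allows a share of up to 3.59%. Introns 5 and 6 had 1 of 25 and 10 of 66 at 34 °C, and 0 of 24 and 3 of 46 at 25 °C. None of these 3 was called, and no pair of twf1 introns differed in log odds ratio after adjustment. The called intron is the shortest of the 4, at 38 nt, and opens with GTAAGA, where introns 2 and 5 open with GTAAGT.

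In get4, for a factor that delivers tail-anchored proteins to the membrane, 4 of 5 measured introns rose. At 34 °C the shares of introns 1, 3, 4, 5 and 6 were 34.3%, 24.6%, 2.27%, 50.7% and 75.8%, against 25 °C values of 3.55%, 3.45%, 0%, 3.23% and 2.70%. Intron 4 (chrIII:591068-591182), of 115 nt with GTAAGT and CTAAT, had 1 unspliced read of 44 at 34 °C, against 0 of 84 at 25 °C, and was not called. Intron 6, of 108 nt with GTACGT and CTAAC, had 25 of 33 at 34 °C and 1 of 37 at 25 °C. The 2 longest measured introns of the gene thus had its smallest and its largest change, but no pair of get4 introns differed in log odds ratio.

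Among the genes with narrow ranges of change, vma5 still spanned 24.9 points and paa1 26.6 points. In vma5, for subunit C of the vacuolar ATPase, no exon of another gene overlaps any of the 6 introns. Their shares from intron 1 to intron 6 were 25.5%, 52.3%, 39.8%, 28.9%, 28.6% and 25.7% at 34 °C and 2.63%, 7.89%, 3.37%, 3.61%, 0% and 6.25% at 25 °C. The first 5 rose, and intron 6, with 9 unspliced reads of 35 at 34 °C, against 2 of 32 at 25 °C, was not called (Fisher's exact test, adjusted p = 0.0564). In paa1, for the scaffold subunit of protein phosphatase 2A, all 6 introns rose, to 72.5%, 80.9%, 63.9%, 64.5%, 58.0% and 35.4% at 34 °C, against 14.3%, 27.6%, 13.3%, 7.41%, 2.67% and 3.74% at 25 °C. The last 2 introns had the lowest shares at both temperatures. Intron 2, which opens with GTTGGT as do 0.318% of placed introns, had the highest share at both. No pair of introns in vma5 or paa1 differed in log odds ratio.

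In 9 genes every intron was measured, and their shares could be added up. The sum of the shares over the introns of a gene is the mean number of unspliced introns per transcript, whether or not the same molecules retain several of them, if each intron samples the same transcripts. The median sum was 2.75 introns per transcript at 34 °C and 0.691 at 25 °C. It ran from 1.26 to 4.79 at 34 °C and from 0.0809 to 1.14 at 25 °C, and it was higher at 34 °C in each of the 9 genes. The definition of an unspliced read is not given in the sources used here. If each had been counted at both borders of an intron, the median at 34 °C would be 1.92.

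**Figure D5:**
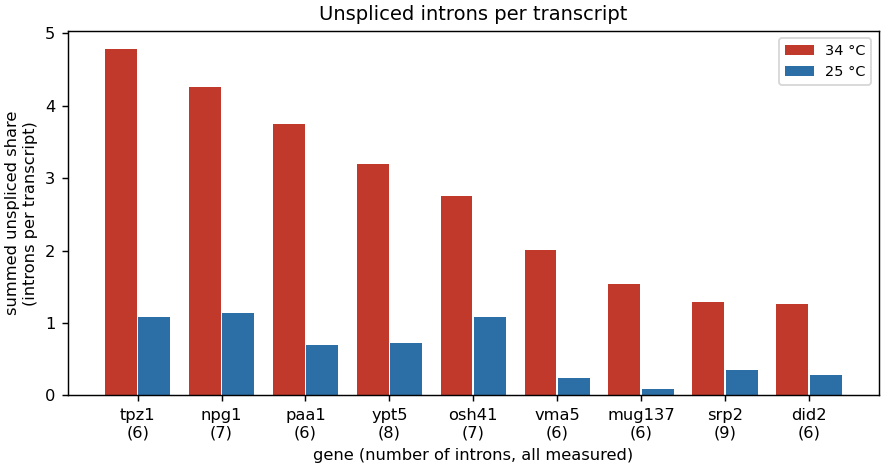
Summed unspliced share (mean number of unspliced introns per transcript) of the 9 intron-rich genes with every intron measured, at 34 °C (left bars) and 25 °C (right bars), with the number of introns in brackets. The sum is highest in tpz1, at 4.79 of 6 introns at 34 °C, and lowest in did2, at 1.26 of 6.

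The largest sum belonged to tpz1, which encodes a subunit of the telomere-protecting complex. Its 6 introns had 41.4%, 88.9%, 94.5%, 94.3%, 83.8% and 76.3% unspliced at 34 °C and 10.3%, 31.4%, 14.8%, 24.8%, 18.1% and 8.57% at 25 °C, in transcript order, and all rose. Since a transcript free of introns must lack the most retained one, at most 5.45% of tpz1 transcripts could be fully spliced at 34 °C, against at most 68.6% at 25 °C. These bounds are point estimates: the 34 °C bound rests on 52 unspliced reads of 55 (share interval 84.9 to 98.9%), and it would be higher if unspliced reads had been counted more than once. An exon of another annotated gene overlaps the intron behind the 34 °C bound, and reads of that gene could have been counted as unspliced. The sums of npg1 were 4.26 at 34 °C and 1.14 at 25 °C, which allows at most 13.7% of fully spliced transcripts at 34 °C and 43.5% at 25 °C. Those of paa1 were 3.75 at 34 °C and 0.691 at 25 °C.

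At the other end stood did2, srp2 and mug137. In did2, which encodes a subunit of the ESCRT-III complex of membrane scission, 2 of 6 introns rose. Intron 4 had 164 unspliced reads of 208 at 34 °C (72.7 to 84.2%), against 8 of 60 at 25 °C (5.94 to 24.6%), and intron 5 had 62 of 250 at 34 °C and 10 of 203 at 25 °C. Introns 1, 2, 3 and 6 had 0%, 12.0%, 5.41% and 5.26% at 34 °C and 2.13%, 2.27%, 1.43% and 3.59% at 25 °C, with no call. Intron 4 alone limited the fully spliced did2 transcripts to at most 21.2% at 34 °C, against between 72.3% and 86.7% at 25 °C. In mug137, for a BAR-domain adaptor protein, all 6 introns rose, and its fully spliced share was at most 57.1% at 34 °C and between 91.9% and 97.2% at 25 °C.

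Among the 58 intron-rich genes with at least 2 measured introns, the most retained intron of a gene had a median share of 75.9% at 34 °C and 12.9% at 25 °C. It exceeded 50% in 48 of these genes at 34 °C and in 4 at 25 °C. A share taken as the highest of several is raised by counting error, more so in genes with more measured introns. In 10 genes even the least retained measured intron was above 50% at 34 °C.

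Of the genes with the most measured introns, trk2, for a potassium transporter, had 10 of 12 measured, and all 10 rose. Their shares ran from 4.72% to 51.5% at 34 °C and from 0% to 12.3% at 25 °C. The smallest change was in intron 11, with 5 unspliced reads of 106 at 34 °C, against 0 of 151 at 25 °C, and the largest in intron 2, with 56 of 117 at 34 °C and 4 of 66 at 25 °C, but no pair of trk2 introns differed in log odds ratio. In clr6, for a class 1 histone deacetylase, 8 of 9 measured introns rose, to between 11.3% and 66.7% at 34 °C. Of these 9 introns 6 had 0 unspliced reads at 25 °C, in 28 to 65 reads. In SPBP19A11.07c, an uncharacterized gene, all 7 measured introns rose, to between 48.3% and 97.6% at 34 °C, against 3.97% to 53.2% at 25 °C. The shares of these 7 introns, out of 8 in the gene, sum to 5.51 at 34 °C. This is a point estimate, and it would be lower if unspliced reads had been counted more than once.

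The Rab5-like GTPase gene ypt5, with all 8 introns measured but not placed, had 7 called higher. Intron 8 had 70 unspliced reads of 116 at 34 °C, against 41 of 571 at 25 °C, and intron 3 had 20 of 150 at 34 °C and 7 of 243 at 25 °C. Intron 5, with 7 of 29 at 34 °C and 19 of 182 at 25 °C, was not called (adjusted p = 0.0726, Fisher's exact test). In osh41 the last intron was already retained at 25 °C, with 61 unspliced reads of 71 at 34 °C, against 61 of 78 at 25 °C. It was the least efficiently spliced measured intron of the intron-rich genes at 25 °C.

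Low changes in points were seen in most introns of srp2, for an SR protein that takes part in splice site choice. All 9 introns were measured and 8 rose, but their shares reached only 2.15% to 36.4% at 34 °C, against 0% to 8.13% at 25 °C. Intron 3 had 4 unspliced reads of 186 at 34 °C, against 0 of 499 at 25 °C, and intron 7 had 15 of 187 at 34 °C and 31 of 384 at 25 °C. Over all introns of the gene 10.7% of 1275 reads were unspliced at 34 °C, against 2.94% of 2857 reads at 25 °C. For rsd1 the pooled shares were 10.7% of 149 reads at 34 °C, against 4.58% of 153 reads at 25 °C. Intron 9 of srp2 had the largest change in points, with 16 of 44 unspliced at 34 °C, against 5 of 98 at 25 °C. Intron 5 changed by 6.90 points, with 17 of 240 unspliced at 34 °C, against 1 of 540 at 25 °C. Its log odds ratio was above that of intron 9, though this pair did not differ. Points and odds ratios thus rank these introns differently. Intron 1 had 21 of 89 unspliced at 34 °C and 10 of 123 at 25 °C. An annotated non-coding gene overlaps all introns of srp2.

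The 2 genes with the most introns were too thinly covered to be followed intron by intron. Telomerase reverse transcriptase, encoded by trt1, has 15 introns, of which 1 was measured. That was intron 9, with 33 unspliced reads of 35 at 34 °C, against 4 of 23 at 25 °C. Over all 15 introns 82.8% of 250 reads were unspliced at 34 °C (interval 77.5 to 87.3), against 18.0% of 172 reads at 25 °C (12.6 to 24.6). In rdh54, for a DNA translocase of meiotic recombination with 14 introns, 86.9% of 122 reads were unspliced at 34 °C (79.6 to 92.3), against 13.6% of 184 reads at 25 °C (8.99 to 19.4). The pooled reads of both transcripts were thus mostly unspliced at 34 °C, but single introns of rdh54 had as few as 1 read there.

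Reads pooled over a gene's introns allow all but 2 of the 90 genes to be described, the 2 being hop1 and zas1. In the other 88 genes the pooled share had a median of 54.1% at 34 °C (5.45% to 87.7%) and 7.60% at 25 °C (0% to 32.0%), and it was higher at 34 °C in all 88. The smallest pooled change, 4.04 points, was in wtf18, of a family of meiotic drive genes with similar copies, so that the origin of its reads is uncertain. Its intron 4 in the table's numbers had 5 unspliced reads of 3066 at 34 °C, against 19 of 9710 at 25 °C, while intron 5 had 174 of 294 at 34 °C and 159 of 2606 at 25 °C. Without wtf18, 45.1% of the reads of intron-rich genes were unspliced at 34 °C and 6.55% at 25 °C, against 40.7% and 5.34% with it. In genes with 1 to 5 introns the pooled shares were 39.9% at 34 °C and 6.68% at 25 °C. Among genes with no measured intron, the pooled share of rec11, for a meiotic cohesin subunit, was 79.5% of 44 reads at 34 °C, against 9.52% of 42 at 25 °C. That of rpb1, for the largest subunit of RNA polymerase II, was 23.9% of 163 reads at 34 °C, against 7.32% of 41 at 25 °C.

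Introns with at least 50 reads in each library, 104 in all, give extremes in points with less counting error. The largest changes were in intron 3 of tpz1 (79.7 points, interval 67.5 to 86.3), introns 5 and 6 of the protein kinase-like gene ppk3 (79.3 and 78.2 points), intron 5 of cds1, for the replication checkpoint kinase (78.4 points), intron 1 of qtr2 and intron 3 of npg1. In cds1, intron 4 had 212 unspliced reads of 213 at 34 °C, against 17 of 36 at 25 °C. The smallest changes were in intron 2 of rsd1 (-1.92 points, interval -10.1 to 5.02), intron 7 of srp2 (-0.0515 points, -4.48 to 5.27), intron 4 of wtf18, intron 6 of did2 (1.68 points, -1.95 to 5.03), intron 3 of srp2 (2.15 points, 0.633 to 5.40) and intron 4 of ftp105 (2.57 points, -0.848 to 4.99). Of these 6, only intron 3 of srp2 was called (adjusted p = 0.00719, Fisher's exact test). Among the largest changes, exons of other annotated genes overlap intron 3 of tpz1, introns 5 and 6 of ppk3 and intron 3 of npg1. Among the smallest they overlap intron 2 of rsd1, introns 3 and 7 of srp2 and intron 6 of did2. Neither qtr2 nor wtf18 was placed, and the introns free of overlap were intron 5 of cds1 and intron 4 of ftp105. In ftp105, for a partner of a ubiquitin protease, intron 5 rose by 29.9 points beside it, and intron 3 was not called, with 161 unspliced reads of 322 at 34 °C, against 20 of 53 at 25 °C.

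By function, 6 lists of genes were set against the intron-rich genes, and each caught few of them. The kinase and phosphatase list held cdc7, paa1 and ppk3, with 12 of 12 measured introns called and a median change of 56.2 points, against 39.1 points over all measured introns of the list. The meiosis and recombination list held cds1, hop1, rdh54 and rec11, with 6 of 6 called and a median of 57.9 points, against 44.7 points over all measured introns of the list. The ubiquitin and proteasome list held apc5, csn3 and cul3, with 9 of 9 called and a median of 45.0 points, against 35.6 points over all measured introns of the list. In apc5, which encodes part of the anaphase-promoting complex, the 6 measured introns had 36.9% to 76.0% unspliced at 34 °C and 2.80% to 10.1% at 25 °C. The cytoskeleton list held aip1, alp1, gtb1 and twf1, with 7 of 11 called and a median of 32.6 points, against 25.4 points over all measured introns of the list. The small GTPase and vesicle transport list held 4 genes, among them alp41, did2 and ypt5, with 14 of 19 called and a median of 24.8 points, against 24.7 points over all measured introns of the list. The splicing list held rsd1 and srp2, with 8 of 11 called and a median of 6.90 points, against 16.7 points over all measured introns of the list. Intron-rich genes of like annotation outside this list rose more. In prp39, for a U1 snRNP-associated protein, the 1 measured intron was called, at 55.7 points. In SPBC11C11.01, for a U2-associated protein, both measured introns were called, at 35.2 and 42.9 points. Of the genes in the lists, hop1, rec11, cul3 and alp41 had no measured intron and add nothing to the lists' counts and medians. In the meiosis and recombination list 5 of the 6 introns were of cds1. Over all intron-rich genes 224 of 261 introns were called, with a median of 39.4 points, and with 2 to 4 genes a list these medians describe single genes more than functions.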

How the data were processed

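Spliced and unspliced reads per intron were taken from the deposited table as whole counts, without scaling, per the file headers. The authors also deposited counts with each 0 replaced by 1 and the ratio of spliced to unspliced reads, per the file headers, which were not used further. The submitters' processing notes name TopHat and SAMtools. Not given in the sources used here are their versions, the genome build and annotation, how reads were counted, whether strand was used, and what made a read unspliced. Samples were assigned to temperatures by their titles, with 1 library each.

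Genes with 6 or more introns in the table were taken, and introns with at least 20 reads in each library were measured. Each measured intron of the whole table was tested with Fisher's exact test (two-sided, SciPy 1.17.1), adjusted (Benjamini-Hochberg) over all 2508 and called at an adjusted p under 0.05. For 2 introns of a gene, the log odds ratios were set against each other by a z statistic after adding 0.5 to every count, with p-values adjusted over all 1825 pairs. Fisher's exact test and the log odds ratios of single introns were run on simulated independent reads, and the test of pairs was not. Introns were placed on RefSeq's ASM294v3 annotation, which may differ from the authors', where exactly 1 annotated exon structure of the gene has that number of introns, which gave 621 introns of 85 member genes. The other 5, among them qtr2, wtf18 and ypt5, have no position here.

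Genes were named by rule: most measured introns, widest and narrowest range of change, most reads per measured intron, most introns, extreme summed shares and extreme changes at 50 or more reads. Other genes named in the text, such as osh41, ftp105, rec11 and rpb1, were chosen after their values were seen. Some genes that the rule names are not reported here. The members and the 6 gene lists were chosen with earlier results of these data known. Alternatives were other read minimums, other limits on the number of introns, introns free of overlap, other calls and tests, and, chosen after seeing the data, leaving out wtf18 and weighting unspliced reads by 0.5.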

Additional observations from a re-analysis of the deposited data

How the results depend on the processing

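With 1 library per temperature and a median of 53 reads at 34 °C and 65 at 25 °C per measured intron, depth limits every result. No paired analysis was possible because each temperature has 1 library. No replicate was left out for the same reason. Leaving out wtf18 moved none of the 7 results beyond counting error. Counts below are given with their percentages, since each setting changes how many introns enter.

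With a minimum of 10 reads, every measured intron was called in 22 of 73 genes (30.1%), the median range of change within genes was 46.5 points, the median summed share at 34 °C was 3.23, and first less last introns by the table's numbers gave 0.330 points. With a minimum of 50 reads, 95 of 104 introns (91.3%) were called, the median change was 34.9 points, every intron was called in 19 of 24 genes (79.2%), the range was 27.0 points, and first less last turned to -8.91 points. For genes with 5 or more introns, the values were 398 of 464 introns (85.8%), 36.4 points, 70 of 112 genes (62.5%), 65 of 827 pairs (7.86%), a range of 37.6 points, a sum of 2.22 and 4.75 points for first less last. For genes with 8 or more introns, they were 92 of 99 introns (92.9%), 37.4 points, 12 of 18 genes (66.7%), 11 of 267 pairs (4.12%), a range of 38.3 points, a sum of 2.24 and 0.0224 points.

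Among introns free of overlap with another gene's exons, 84 of 95 introns (88.4%) were called, against 84.2% of such introns in genes with 1 to 5 introns. Every intron was called in 20 of 28 genes (71.4%), and 2 of 95 pairs (2.11%) differed. The range was 28.8 points over 11 genes, the sum was 2.01 in the 1 gene left, and first less last was 22.1 points. Pairs that differed were thus 8.02% of all pairs and 2.11% of those free of overlap, and the cause was not tested. The overlap-free set also lacks all introns that could not be placed. It therefore leaves out ypt5, qtr2 and wtf18, with 7, 3 and 1 of the differing pairs, besides npg1 with 12. Its p-values were adjusted anew over its own pairs. By Fisher's exact test at 34 °C alone 267 of 524 pairs differed. First less last, 15.5 points by the table's numbers, reversed to -10.6 points along the transcript. The table's numbers appear to run against the transcript in minus-strand genes, and genes that could not be placed are left out along the transcript. With unspliced reads weighted by 0.5, the median change was 28.3 points, the range 38.9 points and the sum 1.92.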
